A study of Mus musculus with 6 samples.

Results

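The 10 genes described here mark the 2-cell-like state of mouse embryonic stem cells. They are Zscan4a to Zscan4f, Gm5662, Gm4340, Gm12794 and Tmem92, and each was found by its symbol in 1 row, so they make up 10 of the 55401 gene rows of the count table. They were chosen by measured values of these same libraries, namely the wide spread between replicates of one group in Zscan4 and in genes known to be expressed with it, so that spread is given below as a description and is not tested.

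The 2-cell-like state is a transient condition that a small fraction of embryonic stem cells in culture enters and leaves, and in which genes of the 2-cell embryo are switched on. Zscan4 encodes a zinc finger protein with a SCAN domain that is made in late 2-cell mouse embryos and in this rare fraction of stem cells, where it is known for telomere elongation and genome stability. The mouse has a tandem array of near-identical Zscan4 copies, and other multicopy families, among them PRAME-like genes, are known to be switched on with them.

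RNA labelled with 4-thiouridine (4sU), a uridine analogue that cells build into RNA as they make it, was captured from 3 depleted and 3 control libraries of 129/Ola mouse embryonic stem cells grown with serum and leukemia inhibitory factor. The depleted cells had spent 5 h with indole-3-acetic acid (IAA), which drives a protein carrying an auxin-inducible degron to the proteasome, and their genotype label names degradation of ZFP207, a zinc finger protein that the series studies beside the splicing particle U1 snRNP. The controls had 0 h of IAA, and their genotype label reads WT, although the titles put both groups in the degron line. Cells without the degron that received IAA were not analysed here. An effect of IAA itself and one of losing ZFP207 therefore cannot be told apart. Whether the line is 1 clone is not given in the sources used here.

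Total counts ran from 14336811 to 23385133 in depleted libraries and from 17613103 to 25916628 in control libraries. The stem cell markers Pou5f1, Sox2, Nanog, Esrrb, Zfp42, Klf4, Tdgf1, Dppa5a and Utf1 summed to 4436, 4563 and 4980 CPM (the count divided by the scaled library size) in depleted replicates 1 to 3 and 4187, 4038 and 4602 CPM in control replicates 1 to 3. Of 8 fibroblast markers, which would mark feeder cells, Postn, Col3a1, Lum and Dcn had no count in any library. The others, Thy1, Twist1, Col1a1 and Col1a2, had counts in some or all libraries. The 8 summed to between 2.87 and 5.55 CPM in depleted libraries and between 4.22 and 9.79 CPM in controls. The highest sum was in control replicate 2, where Thy1 had 8.25 CPM. The libraries numbered 2 of both groups stand apart from the others in the genes described here, and values are therefore given by replicate number. Zfp207 RNA was highest in the libraries numbered 2, at 695, 1467 and 596 CPM in depleted replicates 1 to 3, against 545, 1116 and 548 CPM in controls. Its log2 fold change, depleted over control, was 0.32 (edgeR adjusted p = 0.823). With the replicate number as a block it was 0.29 (edgeR adjusted p = 0.0196). These RNA levels do not measure the ZFP207 protein. All levels are CPM with library sizes scaled by TMM, and they are not set against each other between genes because transcript lengths were not used.

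The Zscan4 copies lie on chromosome 7 of the mouse build GRCm38.p6, between 10794241 and 11614112, an interval of 820 kb that holds 9 genes with a Zscan4 symbol. In the RefSeq annotation of that build, Zscan4b, Zscan4c, Zscan4d and Zscan4f are protein coding, Zscan4a is a transcribed pseudogene and Zscan4e a pseudogene. The remaining 3 copies are Zscan4-ps1, Zscan4-ps2 and Zscan4-ps3. The same interval holds 32 other annotated genes, and none of these had enough counts to be tested. Within 500 kb on either side, 2 of 49 genes were tested. Gm5662 lies on chromosome 12 (88270635 to 88274497), Gm4340 on chromosome 10 (104194042 to 104196522) and Tmem92, a transmembrane protein gene, on chromosome 11 (94777217 to 94782703). Gm12794 (chromosome 4, 101940407 to 101943183) is named Pramel19, a PRAME-like gene, by RefSeq. No other annotated gene overlaps any of the 10.

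The RefSeq promoter table of GRCm38.p6 held 6 of the 10 genes. The 250 bases before the annotated start of the 4 coding Zscan4 copies are shown because they make visible how alike the copies are. Capitals mark the letters TATAAA, the core of a TATA box.
Zscan4b: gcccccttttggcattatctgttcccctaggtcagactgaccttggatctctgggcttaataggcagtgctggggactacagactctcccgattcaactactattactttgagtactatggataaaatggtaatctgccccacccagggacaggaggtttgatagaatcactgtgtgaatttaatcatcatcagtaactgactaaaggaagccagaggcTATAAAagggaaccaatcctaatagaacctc
Zscan4c: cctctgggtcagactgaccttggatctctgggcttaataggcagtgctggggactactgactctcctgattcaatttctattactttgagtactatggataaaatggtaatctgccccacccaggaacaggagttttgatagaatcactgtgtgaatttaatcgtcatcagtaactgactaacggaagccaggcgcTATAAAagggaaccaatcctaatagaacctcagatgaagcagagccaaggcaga
Zscan4d: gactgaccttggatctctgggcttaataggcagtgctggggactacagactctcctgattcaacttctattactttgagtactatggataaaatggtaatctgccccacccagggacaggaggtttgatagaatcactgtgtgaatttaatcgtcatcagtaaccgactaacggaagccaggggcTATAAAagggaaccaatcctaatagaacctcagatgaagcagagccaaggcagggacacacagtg
Zscan4f: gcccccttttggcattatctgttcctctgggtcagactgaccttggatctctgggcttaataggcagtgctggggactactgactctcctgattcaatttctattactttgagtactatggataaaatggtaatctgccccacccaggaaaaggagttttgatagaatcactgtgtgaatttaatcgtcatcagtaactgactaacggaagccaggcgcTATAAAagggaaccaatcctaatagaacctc
These windows are chr7:10905051-10905300 on the minus strand for Zscan4b, chr7:11005495-11005744 on the plus strand for Zscan4c, chr7:11166149-11166398 on the minus strand for Zscan4d and chr7:11397665-11397914 on the plus strand for Zscan4f.

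In local alignments, the windows of Zscan4c and Zscan4f were identical at 226 of 227 aligned positions, and those of Zscan4b and Zscan4c at 215 of 227. Zscan4b and Zscan4d matched at 210 of 216 positions. TATAAA begins 31 bases before the annotated start in Zscan4b and Zscan4f, 54 bases before it in Zscan4c and 65 bases before it in Zscan4d, while the aligned letters were nearly the same. On either strand, TATAAA was present in 4 of the 6 windows, those of the Zscan4 copies, and in 12.4% of all 32851 windows of this length in the table. The windows of Gm4340 and Gm12794 did not hold it. The motif of the homeobox factor Dux and the letters TGCACAC, a motif of ZSCAN4, were also searched on both strands and were in none of the 6 windows and in 0.0304% and 3.67% of all windows. Reads from copies this alike can be divided between rows in ways the table does not show, so the sum of the 6 Zscan4 rows is given beside the single copies.

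All 10 genes had their lowest level in the library numbered 2 of both groups, an intermediate level in number 1 and the highest level in number 3. Summed over the 10 genes, the level was 26.2, 2.97 and 70.5 CPM in depleted replicates 1 to 3, against 19.3, 0.968 and 58.6 CPM in control replicates 1 to 3. These sums rest on 586, 65 and 1042 counts in depleted libraries and 506, 17 and 1082 counts in controls. The depleted and control ranges overlapped almost wholly, while libraries of different number lay far apart. Replicate 3 was 23.8-fold above replicate 2 in the depleted group and 60.6-fold above it in controls, and 2.70-fold and 3.04-fold above replicate 1. In bulk RNA, fewer cells in the state and less RNA per cell cannot be told apart.

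**Figure D1:**
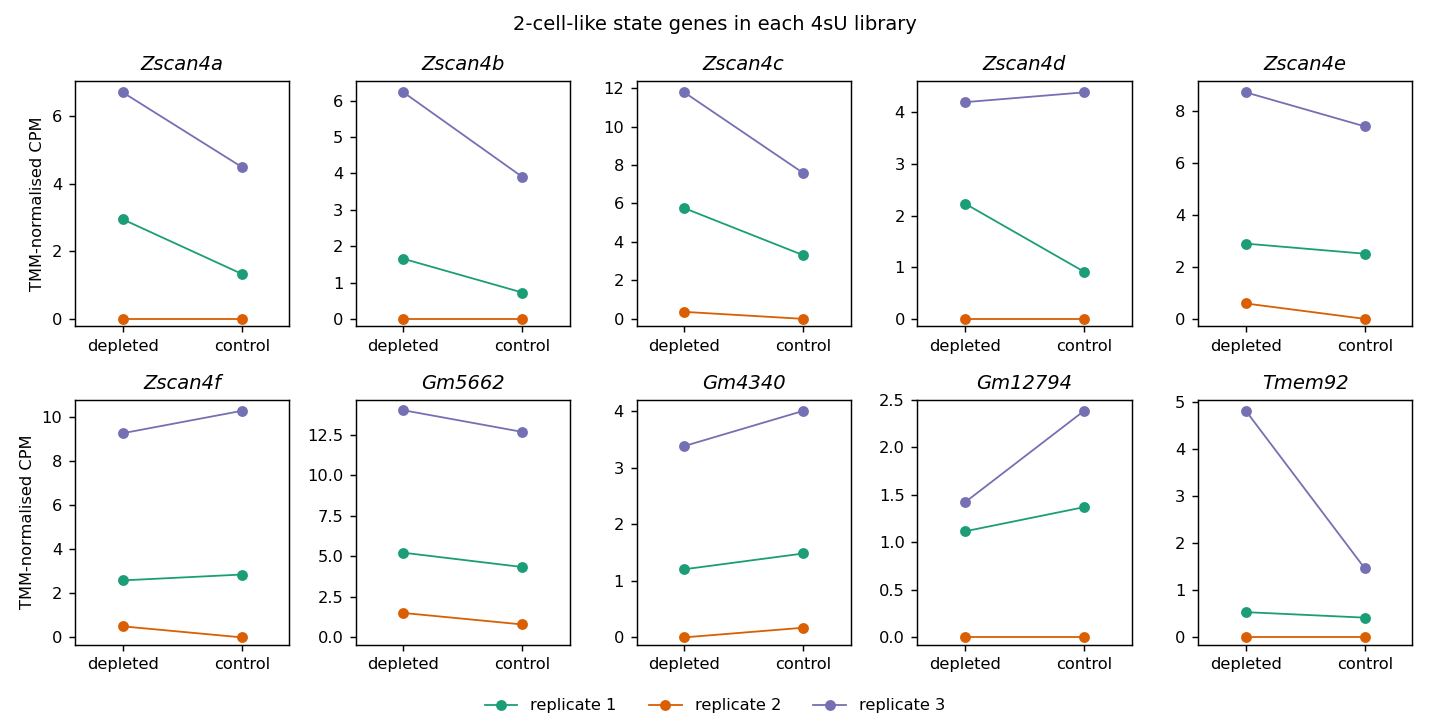
TMM-normalised CPM of each of the 10 genes (vertical axes, linear, scaled per gene) in depleted and control libraries, with a line joining the libraries of the same replicate number. Replicate 2 is lowest and replicate 3 highest in both groups for all 10 genes, while the lines slope up in some genes and down in others.

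The 6 Zscan4 rows together had 405, 32 and 693 counts in depleted replicates 1 to 3, against 306, 0 and 703 counts in control replicates 1 to 3. In CPM this was 18.1, 1.46 and 46.9 in depleted libraries and 11.6, 0 and 38.1 in controls. With 0 counts in control replicate 2, its level is bounded by 3 counts over the 6 rows, or 0.171 CPM, so control replicate 1 was at least 68.2-fold and control replicate 3 at least 223-fold higher than control replicate 2. Depleted replicate 2 was at least 8.55-fold higher than control replicate 2, from 32 counts against 0. These bounds set the observed level over that floor, and with the counting error of the 32 counts included, the 95% lower limit of this last ratio was 6.56. They hold for the 6 rows only. The 3 Zscan4 pseudogene rows of the same array, which are outside this sum, had 8 counts in depleted replicate 2 and 7 in control replicate 2. Reads of near-identical copies can fall on either kind of row, so the array as a whole was not at 0 in control replicate 2.

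Zscan4c, the copy most often studied in stem cells, had 5.76, 0.365 and 11.8 CPM in depleted replicates 1 to 3, against 3.31, 0 and 7.58 CPM in controls. Zscan4f had 2.59, 0.502 and 9.27 CPM in depleted libraries, against 2.85, 0 and 10.3 CPM in controls. Zscan4d had 2.23, 0 and 4.20 CPM in depleted libraries, against 0.913, 0 and 4.39 CPM in controls. In each of these copies the groups overlapped, and both libraries numbered 2 lay below the other 4. Zscan4b had 1.65, 0 and 6.23 CPM in depleted libraries, against 0.723, 0 and 3.90 CPM in controls. The 2 rows annotated as pseudogenes followed the same order. Zscan4a had 2.95, 0 and 6.70 CPM in depleted libraries, against 1.33, 0 and 4.50 CPM in controls. Zscan4e had 2.90, 0.593 and 8.73 CPM in depleted libraries, against 2.51, 0 and 7.42 CPM in controls.

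The share of the Zscan4 counts assigned to each copy differed between libraries. Zscan4c took 31.9% of them in depleted replicate 1 (95% exact interval 27.3 to 36.6%) and 25.1% in depleted replicate 3 (21.9 to 28.5%), against 28.4% in control replicate 1 (23.4 to 33.8%) and 19.9% in control replicate 3 (17.02 to 23.1%). Zscan4f took 14.3% (11.1 to 18.1%) and 19.8% (16.9 to 22.9%) in the same depleted libraries, against 24.5% (19.8 to 29.7%) and 27.0% (23.8 to 30.5%) in the controls. The share of Zscan4f was thus lower, and that of Zscan4c higher, in the depleted library of both numbers that had enough counts. The intervals of Zscan4c overlapped between depleted and control libraries in both pairs. Zscan4a and Zscan4b also took higher shares in the depleted library of both pairs, Zscan4e took lower ones, and Zscan4d differed in direction. Shares of one total depend on each other, so a lower share of one copy raises others. The intervals cover counting error only and treat reads as independent, and with near-identical copies the division of reads itself is uncertain. In depleted replicate 2, the 32 counts fell on Zscan4c, Zscan4e and Zscan4f alone.

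The other 4 genes gave the same order of replicate numbers. Gm5662 had 5.22, 1.51 and 14.01 CPM in depleted replicates 1 to 3, against 4.34, 0.797 and 12.7 CPM in controls. It was the only one of the 10 with more than 3 counts in both libraries numbered 2, with 33 in the depleted library and 14 in the control library. Gm4340 had 1.21, 0 and 3.38 CPM in depleted libraries, against 1.48, 0.171 and 4.01 CPM in controls. Gm12794 had 1.12, 0 and 1.422 CPM in depleted libraries, against 1.37, 0 and 2.38 CPM in controls. Tmem92 had 0.536, 0 and 4.81 CPM in depleted libraries, against 0.419, 0 and 1.46 CPM in controls. Its count in depleted replicate 3, 71, was the largest of the 6, against 27 in control replicate 3.

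The values that chose these genes can be read from the spread within each group. The standard deviation of log2 CPM over 3 libraries ran from 1.57 for Gm5662 to 3.24 for Zscan4a in the depleted group, and from 1.93 for Gm5662 to 3.47 for Zscan4f in controls. Among 17573 genes tested, ranked from the largest spread down, the 10 genes held places between 15 and 873 in the depleted group and between 14 and 389 in controls.

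Between depleted and control libraries, none of the 10 genes was called. All 10 passed the filter on low counts, for which high levels in the libraries numbered 1 and 3 were enough. The edgeR quasi-likelihood fit over all 6 libraries called 0 of the 10 at a Benjamini-Hochberg adjusted p under 0.05, where it called 0.791% of all genes tested (0.0114% higher and 0.780% lower in depleted cells), and none of the 10 had an unadjusted p under 0.05. The same fit with the replicate number as a block also called 0 of the 10, against 12.9% of all genes (4.96% higher and 7.90% lower). In that fit 1 of the 10, Zscan4c, had an unadjusted p under 0.05. Over all 17573 genes tested, 1914 had an unadjusted p under 0.05 without the block and 4899 with it. As a median over the 10 genes, the log2 fold change, depleted over control, was 0.28 without the block and 0.64 with it, beside medians of 0.02 and 0.02 over all genes. Because the 10 were chosen for their spread in these libraries, these medians support no statement about the group difference.

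The block narrowed the intervals of the differences without bringing any of them past the threshold. Zscan4c averaged 5.97 ± 5.71 CPM in depleted libraries and 3.63 ± 3.80 CPM in controls (SD, n = 3 each), with a log2 fold change of 0.70 (SE 1.28, edgeR adjusted p = 0.896) without the block and 0.96 (SE 0.43, edgeR adjusted p = 0.171) with it. Its 95% interval was -2.19 to 3.59 without the block and 0.02 to 1.90 with it. Gm5662, the gene with the narrowest interval, averaged 6.91 ± 6.42 CPM in depleted libraries and 5.94 ± 6.10 CPM in controls, and its log2 fold change was 0.21 (95% interval -1.89 to 2.31, edgeR adjusted p = 0.963) without the block and 0.37 (-0.25 to 1.00, edgeR adjusted p = 0.450) with it. Zscan4f had a log2 fold change of -0.10 without the block and 0.31 with it (edgeR adjusted p = 0.986 and 0.762), so its direction turned with the design. Tmem92 had the largest log2 fold change of the 10, 1.48 without the block and 1.06 with it (edgeR adjusted p = 0.803 and 0.535), and its block interval ran from -1.05 to 3.17. Gm4340 and Gm12794 were the 2 with negative values in both fits, at -0.32 and -0.58 without the block and -0.64 and -0.51 with it. The block interval of Gm4340 ran from -2.16 to 0.88 and that of Gm12794 from -2.53 to 1.52.

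**Figure D2:**
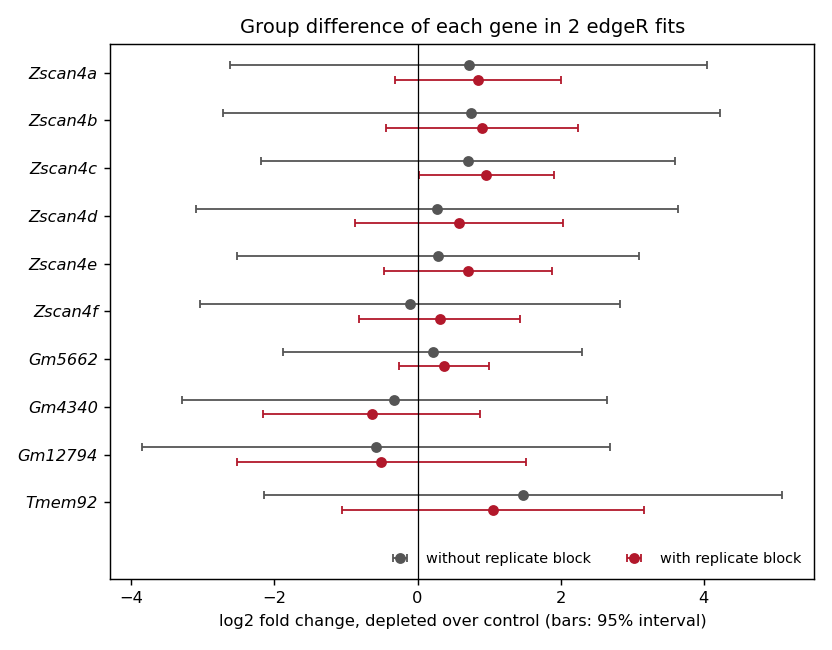
Log2 fold change of each gene, depleted over control, with its 95% interval, from the edgeR fit without the replicate block (grey) and with it (red). The intervals with the block are narrower, and of the 20 intervals drawn only that of Zscan4c with the block, from 0.02 to 1.90, does not include 0.

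Within the pairs of libraries of one number, the summed level of the 10 genes was higher in the depleted library each time. The depleted over control ratio was 1.36 in pair 1 (95% counting interval 1.20 to 1.53), 3.07 in pair 2 (1.78 to 5.58, from 65 and 17 counts) and 1.20 in pair 3 (1.10 to 1.31). These intervals cover counting error only. The single genes did not all move this way, since 7 of 10 were higher in the depleted library of pair 1 and 6 of 10 in that of pair 3. In pair 2, 4 were higher, 1 was lower and 5 had no count in either library. For the 4 genes other than Zscan4 the ratio was 1.06 in pair 1 (0.863 to 1.30) and 1.15 in pair 3 (0.992 to 1.33), and for the 6 Zscan4 rows it was 1.55 (1.33 to 1.81) and 1.23 (1.11 to 1.37). The 3 Zscan4 pseudogene rows, which are not among the 10, had ratios of 0.882 (0.673 to 1.15) and 0.915 (0.756 to 1.11) in the same pairs. In pair 2 the ratio was 1.56 (0.842 to 2.98, from 33 and 17 counts) for the 4 genes other than Zscan4. For the pseudogene rows it was 0.916 (0.290 to 2.97) there. The 6 Zscan4 rows had 32 and 0 counts in pair 2, so the ratio of 3.07 rests mostly on them. The mean ratio over groups depended on single libraries, as the summed level of the 10 genes was 1.26-fold higher in the depleted mean with all libraries, while its log2 ratio was -0.85 without depleted replicate 3 and 1.72 without control replicate 3.

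The distance between replicate numbers was wider in these genes than in most of the table. Of all 17573 genes tested, 121 (0.689%) had more than 4 times the replicate 2 level in both other libraries, in depleted and in control cells alike, and 9 of the 10 genes were among these 121. The exception was Gm5662. In the other direction, 2 of all genes tested had more than 4 times the level of both other libraries in replicate 2 of both groups. Among the 4708 tested genes whose mean level lay between those of the lowest and the highest of the 10, 1.05 to 6.43 CPM, 49 (1.04%) were as low in replicate 2 of both groups. Both libraries numbered 2 had 0 counts for 5 of the 10 genes, and for 110 of all genes tested (0.626%). Of all genes tested, 2.50% had 0 counts in depleted replicate 2, against 1.65% and 2.31% in depleted replicates 1 and 3. In controls it was 2.52% in replicate 2, against 0.706% and 0.797% in replicates 1 and 3. Such shares are not on the scale of a fold change. The depth of replicate 2, 23385133 counts in the depleted and 17631773 in the control library, lay within the range of the others. The part of library-wide differences in the level of the 10 genes was not tested. Without both libraries numbered 2, the block fit again called 0 of the 10 genes, with a median log2 fold change of 0.40 and a value of 0.71 for Zscan4c. Since the 10 genes were chosen for this spread, the counts are a description.

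Summed levels of markers of cell types that stem cell cultures can give rise to also differed by replicate number. The primitive endoderm markers Gata6, Gata4, Sox17, Sox7, Dab2, Pdgfra, Foxa2 and Col4a1, of which 7 of 8 were tested, summed to 25.0, 14.4 and 33.9 CPM in depleted replicates 1 to 3, against 20.6, 6.55 and 22.5 CPM in controls, and were thus lowest in both libraries numbered 2. Col4a1, a collagen gene, carried most of this difference. Of the 7 tested markers, 3 were lowest in replicate 2 of both groups (42.9%, beside 25.7% of all genes tested). The defining factor Sox17 had no count in 5 of the 6 libraries, and Gata6 had none in either library numbered 2 nor in control replicate 3. The 8 trophoblast markers summed to between 109 and 141 CPM in depleted libraries and between 91.4 and 120 CPM in controls, most of it from Tfap2c, and the defining factors Cdx2 and Elf5 were at 0 in all 6. Of the 6 tested trophoblast markers, 1 (Tfap2c) was highest in both libraries numbered 2, and 2, the keratin genes Krt8 and Krt18, were lowest in both. Those shares are 16.7% and 33.3%, beside 23.8% and 25.7% of all genes tested. With so few markers, these counts show no difference of a cell type between replicate numbers. Krt18 had 3.57, 0.776 and 2.37 CPM in depleted libraries, against 2.93, 0 and 3.20 CPM in controls. The part of such cells in the levels of the 10 genes was not tested.

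**Figure D3:**
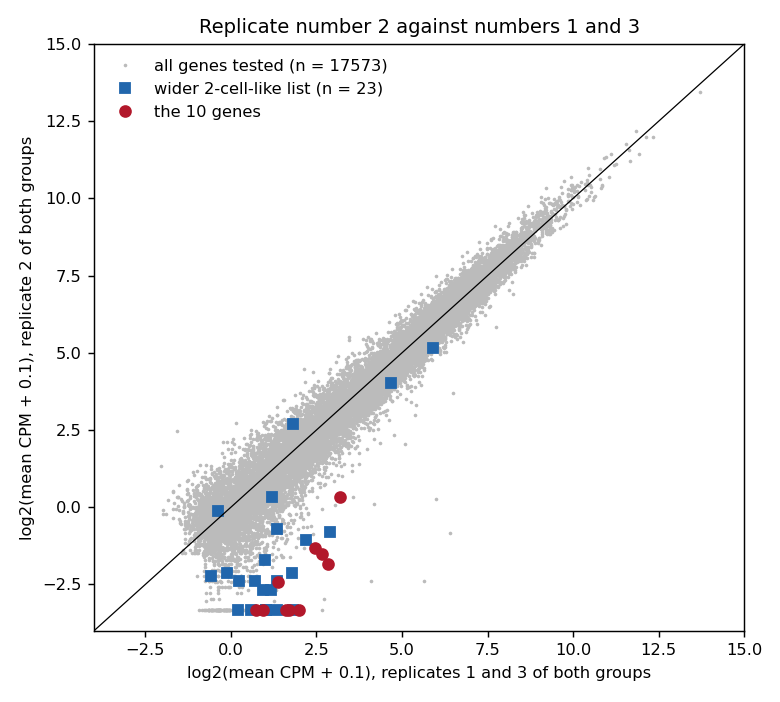
Mean level in the 2 libraries numbered 2 (vertical axis) against the mean of the 4 libraries numbered 1 and 3 (horizontal axis), both as log2(CPM + 0.1), for all 17573 genes tested, with the 10 genes in red and the 23 tested genes of a wider 2-cell-like list in blue. The line marks equal levels, and the red points lie below it and below most grey points of the same horizontal position.

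A wider list of 59 genes known or reported to be expressed in the 2-cell-like state, none of them among the 10, showed how far the pattern extends. All 59 had a row, 23 were tested and 11 had no count in any library. Of the 23 tested, 18 had their lowest level in replicate 2 of both groups (78.3%, beside 25.7% of all genes tested), and 13 of them were more than 4 times lower there than in both other libraries. The 36 untested genes together had 34, 28 and 266 counts in depleted replicates 1 to 3, against 85, 27 and 219 counts in controls. Scaled to library size this was 1.52, 1.28 and 18.0 CPM in depleted libraries and 3.23, 1.54 and 11.9 CPM in controls, so replicate 3 stood apart there and depleted replicates 1 and 2 were close. Genes that pass a filter through libraries in which they are high must vary, and the list was drawn up with earlier results of these data known, so these shares are no support for a common state.

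None of the 23 tested genes was called in either edgeR fit between depleted and control libraries, and none had an unadjusted p under 0.05. Of all 17573 genes tested, 1914 had such a value without the block and 4899 with it. The median log2 fold change of the 23 was 0.15 without the block and 0.16 with it. Gm2016, on chromosome 12 near Gm5662, had 3.71, 0.548 and 10.7 CPM in depleted replicates 1 to 3, against 2.82, 0.398 and 12.3 CPM in controls. Its levels ran in the order of the 10 genes, with both libraries numbered 2 at the bottom and both numbered 3 at the top. Not every listed gene did so. Calcoco2, an autophagy receptor gene, had 31.6, 37.6 and 89.1 CPM in depleted libraries, against 28.8, 33.8 and 88.2 CPM in controls, so it was high in replicate 3 without being low in replicate 2. Ddit4l, which encodes a relative of the stress-induced mTOR inhibitor REDD1, had 30.1, 17.9 and 19.6 CPM in depleted libraries, against 34.4, 14.1 and 17.5 CPM in controls, and was highest in replicate 1. The X-linked deubiquitinase gene Usp26 had 3.62, 8.26 and 3.45 CPM in depleted libraries, against 1.71, 4.44 and 4.82 CPM in controls.

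The 3 Zscan4 pseudogene rows moved with the 10 genes. They summed to 4.46, 0.365 and 13.1 CPM in depleted replicates 1 to 3, against 5.06, 0.398 and 14.4 CPM in controls. Gm4340 and its 5 listed neighbours on chromosome 10, Gm21293, Gm6763, Gm21304, Gm21312 and Gm20765, together had 6.43, 0.0913 and 22.7 CPM in depleted libraries, against 4.99, 0.455 and 22.0 CPM in controls, with 2 and 8 counts in the depleted and the control library numbered 2. Gm5662 and 5 of the tested listed genes of chromosome 12 (Gm8300, BB287469, Gm2016, Gm2022 and Gm4027) had 12.3, 3.10 and 37.0 CPM in depleted libraries, against 11.8, 1.99 and 34.2 CPM in controls. In all 3 sums the depleted and control library of one number lay closer together than libraries of different number, apart from the few counts of replicate 2.

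Among 17563 other genes, the 10 nearest in profile to the sum of the 10 genes were sought by the root mean square distance over 6 libraries between mean-centred log2 CPM values. The nearest was Gm8300, at 0.39 log2 units, followed by the PRAME-like gene Pramef17 at 0.51, which RefSeq names Pramel14. Gm8764 (0.52), Gm21304 (0.54), Gm21761 (0.54), Gm21312 (0.57), Gm2016 (0.58), Gm13128 (0.59), Gm1995 (0.60) and Gm6763 (0.61) came next. The distances of the 10 genes themselves from their sum ran from 0.39 for Zscan4e to 0.93 for Gm4340. They are part of that sum, so their distances are no yardstick for genes outside it. Of these 10 nearest genes, 4 lie on chromosome 10 within 40.1 kb of Gm4340, 3 lie on chromosome 12 between 393 and 752 kb from Gm5662, 2 are PRAME-like genes of chromosome 4 and 1 lies on chromosome 13. The wider list already held 5 of the 10. Gm8300 had 1.12, 0.183 and 3.72 CPM in depleted replicates 1 to 3, against 1.52, 0 and 3.47 CPM in controls. Gm13128, which RefSeq names Pramel30, had 5.58, 1.73 and 18.3 CPM in depleted libraries, against 7.003, 0.569 and 16.5 CPM in controls. The choice depends on how low counts are treated, because a prior count of 0.5 in place of 2 kept 3 of the 10 names, Gm2016, Gm8300 and Gm13128. The members of one array can share reads, so their profiles are not independent of each other.

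**Figure D4:**
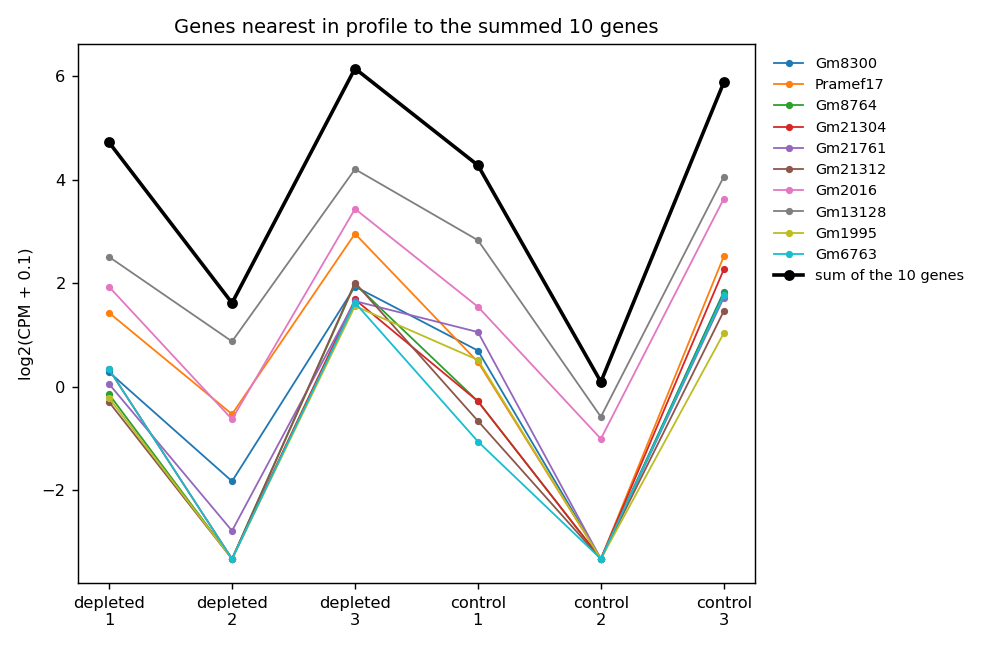
Level as log2(CPM + 0.1) (vertical axis) in the 6 libraries (horizontal axis) of the 10 genes nearest in profile to the sum of the 10 2-cell-like state genes, with that sum in black. All lines dip in both libraries numbered 2 and peak in both numbered 3, and the lowest points are libraries with 0 counts.

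Of 9 listed symbols for genes known or reported to switch the state on, 7 were matched to a row and 6 were tested. None was called in either edgeR fit. With the block 1 had an unadjusted p under 0.05, and 0 without it, beside 4899 and 1914 of all 17573 genes tested. Duxf3, a row of the homeobox gene Dux that drives the 2-cell programme, had 12, 0 and 1 counts in depleted replicates 1 to 3, against 6, 0 and 6 counts in control replicates 1 to 3, and was not tested. It too had no count in either library numbered 2. The list held this gene also under the symbol Dux, which had no row of its own. Dppa2 and Dppa4 encode a pair of DNA-binding proteins that act upstream of Dux. Dppa2 had 105, 89.6 and 102 CPM in depleted libraries, against 80.8, 97.6 and 87.0 CPM in controls. Dppa4 had 116, 111 and 110 CPM in depleted libraries, against 120, 109 and 108 CPM in controls, with a log2 fold change of 0.00 (95% interval with the block -0.17 to 0.18). Neither was lowest in replicate 2 of both groups, and the depleted and control levels overlapped. Nelfa, a subunit gene of the negative elongation factor that has been reported to drive the state, averaged 91.3 ± 4.14 CPM in depleted libraries and 76.6 ± 4.18 CPM in controls (log2 fold change 0.25, edgeR adjusted p = 0.562 without the block and 0.0963 with it). Tbx3, a T-box transcription factor gene, had 306, 308 and 463 CPM in depleted libraries, against 274, 255 and 505 CPM in controls, and was thus highest in both libraries numbered 3. Dppa3, which encodes the maternal factor Stella, had 8.12, 9.26 and 1.15 CPM in depleted libraries, against 7.38, 9.45 and 2.98 CPM in controls, and was lowest in both libraries numbered 3, where the 10 genes were highest. Gata2, a GATA transcription factor gene, had 5.58, 5.06 and 8.06 CPM in depleted libraries, against 5.25, 3.30 and 6.01 CPM in controls.

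All 30 genes taken as repressors of the state were tested. The edgeR fit without the block called none of them, and 4 had an unadjusted p under 0.05, beside 1914 of all 17573 genes tested. The fit with the block called 6 higher and 1 lower in depleted cells. That is 23.3% of the list, where the block fit called 12.9% of all genes. The 2 shares cover genes of unlike level. In control means the lowest listed gene was Ring1 at 4.49 CPM, followed by E2f6 at 33.8 CPM, while 4708 of all genes tested averaged 1.05 to 6.43 CPM. No share among genes of like level was taken. The median log2 fold change of the list was 0.10 without the block and 0.07 with it. The genes that rose in the block fit were Rybp, a subunit gene of non-canonical Polycomb complex 1, E2f6, which encodes a repressor of the PRC1.6 complex, Ehmt2, the H3K9 methyltransferase G9a, Trim28, the corepressor KAP1, Myc and the zinc finger gene Patz1. The histone demethylase gene Kdm1a fell in that fit.

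Trim28 (chromosome 7, 13024152 to 13031032) had 1308, 1148 and 1634 CPM in depleted replicates 1 to 3, against 1191, 852 and 1265 CPM in controls, and was higher in the depleted library of each pair. Its log2 fold change with the block was 0.31 (SE 0.07, edgeR adjusted p = 0.0135). Ehmt2 (chromosome 17, 34898463 to 34914073) had 147, 123 and 138 CPM in depleted libraries, against 114, 81.4 and 115 CPM in controls. Its log2 fold change with the block was 0.40 (SE 0.09, edgeR adjusted p = 0.0113). Rybp (chromosome 6, 100228565 to 100287358) had 436, 813 and 396 CPM in depleted libraries, against 346, 590 and 331 CPM in controls (log2 fold change with the block 0.35, edgeR adjusted p = 0.00634). Kdm1a (chromosome 4, 136550533 to 136602787) had 119, 120 and 109 CPM in depleted libraries, against 154, 135 and 142 CPM in controls (log2 fold change with the block -0.31, edgeR adjusted p = 0.0293). Myc rose 1.41-fold, E2f6 1.39-fold and Patz1 1.24-fold in the block fit. When any pair was left out of the block fit, 3 or 4 of the 30 were called in place of 7.

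Repressor genes also differed between replicate numbers, in both directions. Of the 30, 10 had their lowest level in replicate 2 of both groups and 11 their highest, beside 25.7% and 23.8% of all genes tested. Rif1, which encodes a DNA replication timing and telomere factor reported to repress Zscan4, had 1320, 2055 and 1336 CPM in depleted replicates 1 to 3, against 1379, 1987 and 1466 CPM in controls. Rif1 and Rybp were thus highest in both libraries numbered 2, where the 10 genes were lowest, and Trim28 and Ehmt2 were lowest in both. The part of these differences in the level of the 10 genes was not tested.

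**Figure D5:**
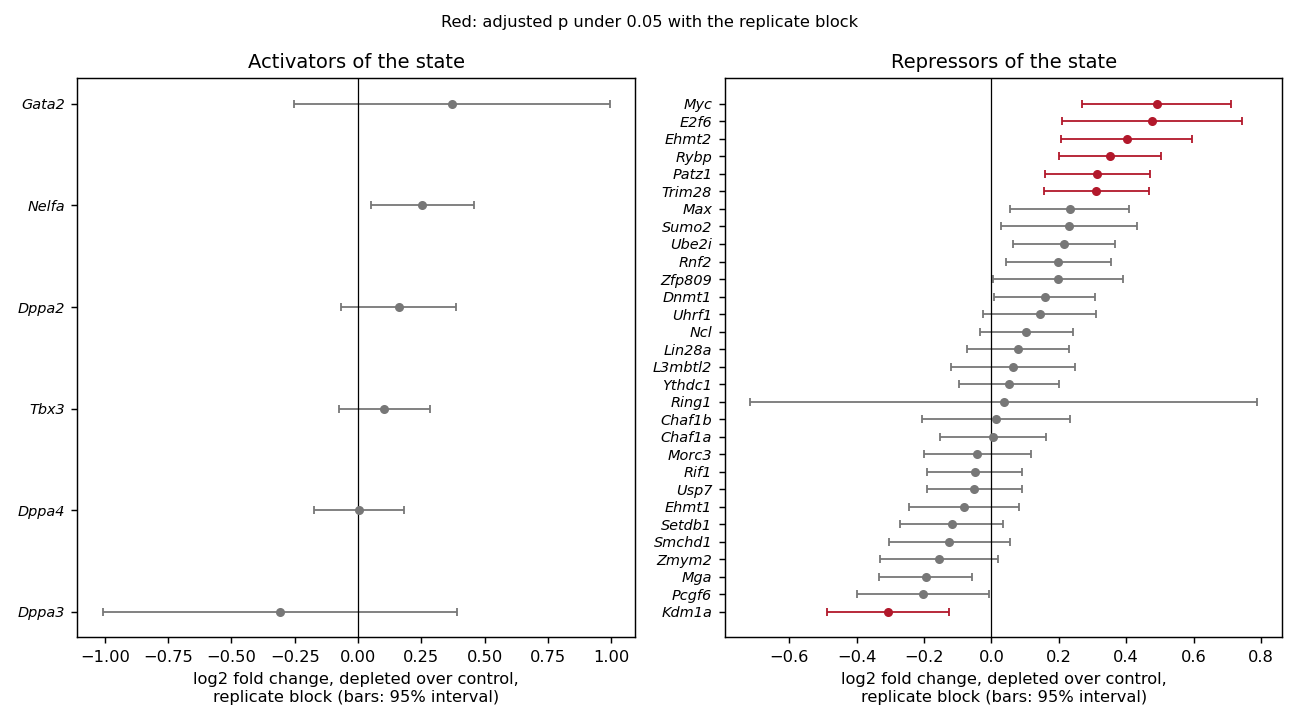
Log2 fold change, depleted over control, in the edgeR fit with the replicate block, with 95% intervals, for the 6 tested activator genes and the 30 repressor genes of the state. Red points passed the adjusted threshold in that fit, where 6 repressor genes lie above 0 and Kdm1a below it.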

How the data were processed

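Newly made RNA was measured in 6 libraries, 3 depleted and 3 control, grouped by their titles. The authors deposited 1 table of estimated counts per gene, already whole numbers, with 1 column per library. HISAT2 2.2.1, StringTie 2.2.1, DESeq2 1.42.0 and build mm10 are named per the submitters' processing notes, with no role stated, while strand and the treatment of multiply mapped reads are not stated. Near-identical copies can therefore share reads.

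The counts were fitted with edgeR 4.0.16 under R 4.3.3: filterByExpr (17573 of 55401 genes kept), TMM scaling, and the robust quasi-likelihood test of depleted over control, with Benjamini-Hochberg adjusted p under 0.05 called. Standard errors are those implied by the F statistic. On simulated data, each of both fits recovered 100% of 200 genes changed by 2 log2 units among 17573. Those changes were planted in better expressed genes, with far less spread between libraries than the 10 genes had. The simulation therefore does not show that such a change would be found in the 10 genes. Same-numbered libraries deviated together from their group means (r across genes 0.268, 0.387 and 0.321, against -0.265 to -0.025 between numbers), every one above 0.1, and the block fit is therefore given beside the results, with libraries paired by number. Deviations from a mean of 3 libraries cancel within each gene, so the contrast with the values between numbers is partly built in. The labels do not say whether replicates were separate cultures, and the spread behind the p-values may then be technical. Alternatives were other size factors, no filter, DESeq2 1.42.0, the block, non-robust dispersions and each library left out. Coordinates, biotypes and promoters are RefSeq's for GRCm38.p6, the assembly that mm10 names. The 10 genes and all lists were chosen with earlier results of these data known. Genes named are the 10, the 10 nearest profiles, up to 8 called genes per list (or the 4 with most counts), and others picked after their values were seen: Rif1, Duxf3 and those under other observations.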

Additional observations from a re-analysis of the deposited data

How the results depend on the processing

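Which members were called did not depend on the settings tried: 0 of the 10 genes, 0 of the wider list and 0 activators passed with other size factors, no filter, non-robust dispersions, DESeq2, the replicate block, or any library or pair left out (Tmem92 was not tested in the block fit without pair 3). The number of all genes called was 139 in the unpaired fit, 641 with DESeq2 and 2259 with the replicate block, where 7 repressor genes were called in place of 0. Leaving out 1 library at a time left 0 to 1 genes called, and leaving out 1 pair from the block fit left 949 to 1428 (1418 without pair 1), with 3 to 4 repressor genes. Over all fits that left out a library or a pair, the log2 fold change ran from -0.36 to 2.22 for Zscan4a, -0.86 to 2.77 for Zscan4b, -0.22 to 1.82 for Zscan4c, -0.62 to 2.17 for Zscan4d, -0.90 to 1.66 for Zscan4e, -1.47 to 1.49 for Zscan4f, -0.80 to 1.41 for Gm5662, -1.61 to 0.86 for Gm4340, -1.16 to 0.28 for Gm12794 and -1.18 to 2.97 for Tmem92, so each turned sign when some library was left out of the unpaired fit. With the replicate block the value of Zscan4f was 0.31, and it was 0.59 without pair 1 and 1.13 without pair 3, while that of Zscan4d was -0.062 without pair 1. The log2 ratio of mean summed CPM ran from -0.85 to 1.72 for the 10 genes and from -0.76 to 1.93 for the 6 Zscan4 rows, and without replicate 2 of both groups, an alternative chosen after seeing the data, it was 0.31 and 0.39, against 0.34 and 0.42 with all libraries. A prior count of 0.5 kept 3 of the 10 nearest genes. The cause of these shifts was not tested. Counts of 0 in the libraries numbered 2 limit any ratio there to a bound.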

Other observations

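Genes outside the 2-cell-like lists were also low in both libraries numbered 2. Of the 121 genes more than 4 times lower there than in both other libraries of their group, 9 were among the 10 genes, 13 in the wider list and 99 in neither. Among these 99, Rpl10l, a retrogene of a ribosomal protein expressed in testis, had 40.8, 9.58 and 41.8 CPM in depleted replicates 1 to 3, against 38.8, 6.09 and 43.8 CPM in controls. The keratin gene Krt8, one of the trophoblast markers, had 10.3, 1.32 and 8.19 CPM in depleted libraries, against 6.85, 0.569 and 7.47 CPM in controls. Fkbp6, a germ cell gene of the piRNA pathway, had 5.54, 1.10 and 7.65 CPM in depleted libraries, against 1.29, 0 and 3.85 CPM in controls. Rpl10l and Krt8 were as high in replicate 1 as in replicate 3, unlike the summed 10 genes, which stood 2.70-fold (depleted) and 3.04-fold (control) higher in replicate 3. These genes were picked after their values were seen, and no test was made.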
